A study of Mus musculus with 9 samples.

Results

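The type I interferon response genes Ifit1, Ifit3, Isg15, Irf7, Oasl2, Rsad2, Mx1, Usp18 and Ifi44 were followed in mouse heart after ischemia and reperfusion. They were chosen by gene symbol and are 9 of the 54532 genes in the count table. Total heart RNA was sequenced in 3 groups of 3 libraries. The study asked what myocardial ischemia/reperfusion injury (MIRI) did to heart transcripts, and what Guanxinning injection (GXNI), a preparation of the roots of Salvia miltiorrhiza and Ligusticum chuanxiong, did in injured hearts. All mice were wild-type C57BL/6J males of 8 to 10 weeks, 1 mouse per library. MIRI and GXNI mice had the left anterior descending coronary artery tied for 30 min and then reopened for 24 h. Saline or GXNI at 9 mL/kg was given through the tail vein within 10 min of ischemia. Sham mice had the same operation with the thread passed but not tied, and received saline.

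Type I interferons bind a receptor made of Ifnar1 and Ifnar2, whose kinases phosphorylate STAT proteins. These join Irf9 in the complex ISGF3, which binds interferon-stimulated response elements (ISREs) in the promoters of target genes, and the targets restrain viral replication or regulate the pathway itself. In the infarcted heart such a response is known in macrophages and other leukocytes that sense nucleic acids of dying cells.

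The promoters of 4 members hold the ISRE core that ISGF3 recognizes, and these are shown because they are the part of the genes that the pathway acts on. The core was searched as GAAANNGAAA on both strands, from 250 bases before to 50 bases after each transcription start of RefSeq on GRCm38.p6, in a table that held 7 of the 9 genes, without Mx1 and Usp18. Capitals mark the cores, which in Isg15 are 3 overlapping matches that share bases, and which in the other genes lie on the strand opposite to the gene.
Isg15: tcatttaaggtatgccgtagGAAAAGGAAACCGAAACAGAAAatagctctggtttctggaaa
Rsad2: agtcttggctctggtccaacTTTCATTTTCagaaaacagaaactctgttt
Ifit3: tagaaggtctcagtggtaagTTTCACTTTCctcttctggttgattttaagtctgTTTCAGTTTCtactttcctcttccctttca
Ifit1: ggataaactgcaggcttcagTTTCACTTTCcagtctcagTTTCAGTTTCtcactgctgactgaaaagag

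These windows lie at chr4:156200855-156200916 on the reverse strand for Isg15, chr12:26456543-26456592 on the reverse strand for Rsad2, and chr19:34583353-34583436 and chr19:34640765-34640833 on the forward strand for Ifit3 and Ifit1. The core was found in 57.1% of the 7 member promoters, in 38.5% of 52 promoters of other interferon-stimulated genes and in 3.44% of all 32851 promoters. The gamma-activated site TTCNNNGAA, known from the response to interferon gamma, was in 0 of the 7, in 17.3% of the 52 and in 8.30% of all promoters. No match says only that these letters are not in this window.

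The libraries held 17119454 to 22811295 counts, so that 3 counts stood for 0.132 to 0.175 CPM, counts scaled to the library total. The samples carry the label cardiomyocytes, but markers of endothelial cells (541 to 1015 CPM in sum), fibroblasts (472 to 1108 CPM) and macrophages (492 to 927 CPM) were present in every library, as in whole heart, and in such bulk RNA fewer cells of a type and less RNA per cell cannot be told apart. Over 15226 genes, none of the 6 libraries after ischemia and reperfusion was most like one of its own group. By Spearman correlation MIRI 1 (0.986) and MIRI 3 (0.987) were most like GXNI 3, MIRI 2 was most like GXNI 1 (0.982), GXNI 1 was most like sham 1 (0.984), GXNI 2 was most like MIRI 1 (0.980) and GXNI 3 was most like MIRI 3 (0.987). The neutrophil markers, at 715.9 and 640.5 CPM in sum in MIRI 1 and MIRI 3, summed to 26.4 CPM in MIRI 2, below the lowest sham library at 27.4 CPM, and to 709.6 CPM in GXNI 3, so that the libraries labelled MIRI 2 and GXNI 3 stood apart. Whether these 2 labels are exchanged in the count table was not tested, and an exchange would change the values given for MIRI and for GXNI. The groups follow the labels below, each result is also given without these libraries where that changes it, and the 6 libraries after ischemia and reperfusion were also compared with sham as 1 arm (I/R), which does not depend on which of them is MIRI and which GXNI.

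All 9 genes had their lowest level in the library labelled MIRI 2, where 12% of all genes had theirs. The library labelled GXNI 3 held the highest level of 7 of the 9, against 19.1% of all genes, while Ifit1 was highest in MIRI 1 and Irf7 in sham 3. Leaving out either library therefore shifts the mean of its group for these genes by construction. The highest level exceeded the lowest by 21.8 to 59.8 times, on log2 CPM with a prior count of 0.5, against a median of 2.13 times over all genes. With all libraries in, none of the 9 was called in any comparison by the main fit with edgeR's quasi-likelihood test. Other settings called members higher in GXNI against sham. DESeq2 called 2 (3.55% of all genes), edgeR without the filter on low counts 1 (3.57%) and edgeR with a block for the replicate number 2 (2.33%).

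Irf7 is the transcription factor that amplifies the response once it is induced. It lies on chromosome 7 from 141262706 to 141266481 on the reverse strand (GRCm38), and its exons overlap those of Phrf1 on the other strand. Its level was 126.2, 167.1 and 231.3 CPM in sham mice 1 to 3. It was 200, 6.17 and 72.5 CPM in MIRI mice 1 to 3 and 47.6, 78.6 and 197.2 CPM in GXNI mice 1 to 3. Irf7 was the 1 member that no I/R library held above the highest sham library, and 4 of the 6 I/R libraries lay below the lowest sham library.

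The antiviral effectors differed from Irf7. Ifit1 and Ifit3 encode tetratricopeptide proteins that bind foreign RNA or assemble on it. Both lie in the Ifit gene cluster on chromosome 19, Ifit3 from 34583531 to 34588731 and Ifit1 from 34640871 to 34650009, both on the forward strand, and reads of Ifit3 may be shared with its close copy Ifit3b. Ifit1 stood at 17.9, 45.2 and 78.5 CPM in sham, at 109.3, 2.88 and 37.6 CPM in MIRI and at 25.2, 40.6 and 103.0 CPM in GXNI. Ifit3 stood at 28.3, 50.7 and 71.9 CPM in sham, at 132.4, 3.64 and 42.7 CPM in MIRI and at 32.1, 60.5 and 181.0 CPM in GXNI. For both genes MIRI 1 and GXNI 3 exceeded the highest sham library, and the other I/R libraries except MIRI 2 lay within the sham range.

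Oasl2 encodes a member of the oligoadenylate synthase family and lies on chromosome 5 from 114896936 to 114912234 on the forward strand. It was at 19.6, 43.4 and 54.6 CPM in sham, 112.8, 5.41 and 54.4 CPM in MIRI and 50.01, 70.6 and 160.4 CPM in GXNI. The levels in MIRI 1, GXNI 2 and GXNI 3 exceeded those of the 3 sham libraries. Rsad2 encodes viperin, a radical SAM enzyme that makes a chain-terminating nucleotide, and lies on chromosome 12 from 26442746 to 26456452 on the reverse strand. It was at 26.0, 61.3 and 61.4 CPM in sham, 158.6, 8.23 and 102.2 CPM in MIRI and 27.5, 55.6 and 261.3 CPM in GXNI. MIRI 1, MIRI 3 and GXNI 3 lay above the sham range for Rsad2, and GXNI 1 and GXNI 2 lay within it.

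Mx1 encodes a dynamin-like GTPase that blocks influenza viruses, although the Mx1 gene of C57BL/6 mice is known to carry a deletion that removes its function. It lies on chromosome 16 from 97447035 to 97462907 on the reverse strand. Mx1 was the member with the lowest counts, 8 to 510 per library. Its level was 1.13, 3.72 and 5.35 CPM in sham, 16.5, 0.470 and 9.83 CPM in MIRI and 6.95, 8.83 and 29.6 CPM in GXNI. Every I/R library except MIRI 2 exceeded the highest sham library.

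Isg15 encodes a ubiquitin-like modifier, and Usp18 the protease that removes it and also blocks signalling at the receptor. Isg15 lies on chromosome 4 from 156199424 to 156200818 on the reverse strand and Usp18 on chromosome 6 from 121245906 to 121270917 on the forward strand. Isg15 was at 10.4, 22.0 and 24.8 CPM in sham, 71.2, 2.41 and 49.8 CPM in MIRI and 21.3, 33.9 and 128.6 CPM in GXNI, with 4 of the 6 I/R libraries above the sham range. Usp18 was at 9.24, 17.6 and 19.3 CPM in sham, 31.1, 1.41 and 17.2 CPM in MIRI and 12.8, 18.2 and 47.8 CPM in GXNI, with MIRI 1 and GXNI 3 above the sham range. Ifi44, a cytosolic protein restraining some viruses, lies on chromosome 3 from 151730922 to 151749960 on the reverse strand. It was at 6.02, 15.9 and 20.1 CPM in sham, 23.3, 1.29 and 9.40 CPM in MIRI and 10.1, 15.1 and 28.7 CPM in GXNI, so that again MIRI 1 and GXNI 3 alone exceeded the sham libraries.

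**Figure D1:**
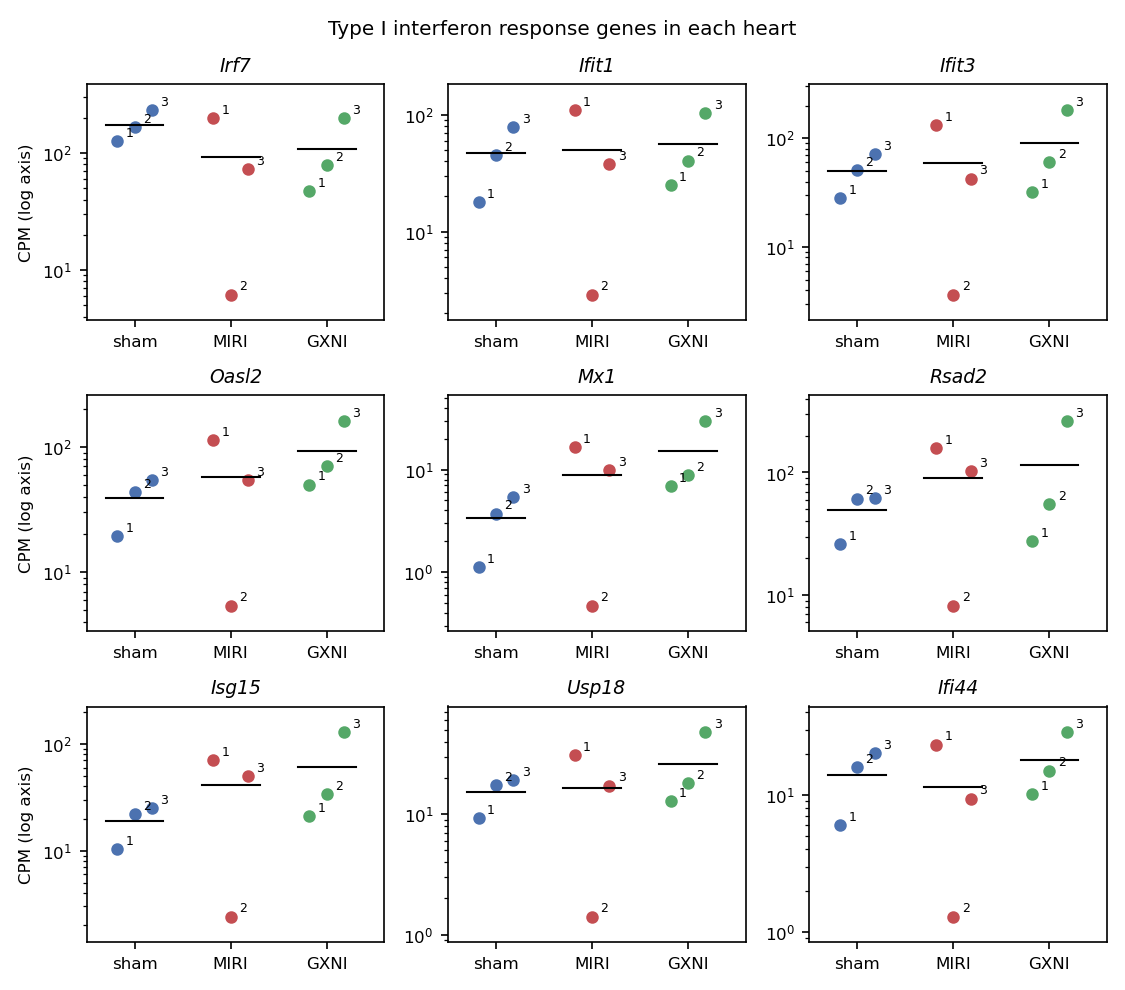
Level of each gene in each library, as CPM on a log axis, by labelled group. Points are libraries with their replicate number beside them and black lines are group means. The library labelled MIRI 2 is the lowest point in all 9 panels, and sham 1 is the lowest of the sham libraries in all 9.

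Per length, as reads per kilobase of annotated exon scaled to the library total (RPKM) and averaged over the 9 libraries, the levels ran from 53.6 for Isg15 and 38.4 for Ifit3 through 33.2 for Irf7, 19.5 for Rsad2, 19.3 for Ifit1, 9.96 for Oasl2 and 6.96 for Usp18 to 2.42 for Mx1 and 2.36 for Ifi44. The exon length taken for Irf7, 3776 bases, equals the span of the whole gene, so its level per length may be too low. The levels varied widely over libraries, so the order is one of means, and neighbours in it were not compared within each library. In 7 of the 9 genes the group means in CPM ran from sham through MIRI to GXNI, the exceptions being Irf7 and Ifi44. Isg15, for example, averaged 19.1 ± 7.67 CPM in sham, 41.2 ± 35.2 CPM in MIRI and 61.3 ± 58.7 CPM in GXNI (SD, n = 3 each), and each neighbouring pair of these means lay within the SDs. The order of MIRI and GXNI rested on the libraries that stood apart. Without MIRI 2 and GXNI 3 the GXNI mean lay below the MIRI mean in all 9 genes, as for Isg15 with 60.5 CPM in MIRI and 27.6 CPM in GXNI.

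The sham hearts themselves were not alike. Sham 1 was the lowest of the 3 sham libraries for all 9 members and for 89.8% of 49 other interferon-stimulated genes, against 36.0% of all genes. The highest sham library exceeded the lowest by 1.83 times for Irf7 and by up to 4.66 times for Mx1, and 14.1% of all genes varied by at least 1.83 times among the sham hearts.

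The members moved together across hearts. The 36 pairs of members had Pearson correlations of log2 CPM from 0.65 to 0.99 over the 9 libraries, with a median of 0.93, and without MIRI 2 from 0.10 to 0.97, with a median of 0.87. These points share libraries and depth and are given as a description. The mean log2 CPM of the 9 genes was 3.82, 4.94 and 5.30 in sham, 6.15, 1.41 and 5.06 in MIRI and 4.43, 5.09 and 6.61 in GXNI. The I/R libraries therefore held both the lowest and the highest values of the response, and the sham libraries lay between them.

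MIRI mice were first compared with sham mice. With all libraries, 0 of the 9 members passed a fold change of 1.5 and an unadjusted p of 0.01 in edgeR's quasi-likelihood test, where 6.15% of 14644 genes were called higher and 2.82% lower, and 0 reached an unadjusted p under 0.05, as 28.3% of genes did, or were called by DESeq2. No member separated the groups without overlap, which 16.7% of genes did upward and 17.0% downward. The log2 fold changes ran from −0.89 (SE 0.95) for Irf7 to 1.41 (SE 1.03) for Mx1, with a median of 0.26 against 0.00 over all genes.

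The result depended on 1 library. Without the library labelled MIRI 2, 3 of the 9 members were called higher in MIRI than in sham mice, and 0 lower, where 16.9% of 15207 genes were called higher and 13.3% lower. By edgeR's quasi-likelihood test, Isg15 then rose by 1.67 (SE 0.33, adjusted p = 0.00631), Rsad2 by 1.40 (SE 0.36, adjusted p = 0.0176) and Mx1 by 1.96 (SE 0.50, adjusted p = 0.0177) on the log2 scale. Irf7 stayed at −0.35 on that scale, and the median of the 9 genes was 0.81. The call for these 3 genes rests on the 2 remaining MIRI hearts, and the heart left out was the lowest library for all 9 genes.

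GXNI mice were then compared with MIRI mice, the comparison that asks what the drug, given within the ischemia, did in injured hearts. All 9 genes had a higher mean in GXNI, by 0.17 for Ifit1 to 0.76 for Mx1 on the log2 scale, but 0 were called and 0 reached an unadjusted p under 0.05 by edgeR or were called by DESeq2. Among 14762 genes 0.0% were called higher and 0.0203% lower, and 0.318% had an unadjusted p under 0.05. No member separated these groups without overlap, as 1.29% of genes did upward and 1.38% downward. Isg15 had a log2 difference of 0.58 (SE 1.11) and Irf7 one of 0.22 (SE 1.07), both with an adjusted p of 1 in edgeR. The sign of this comparison depended on the libraries that stood apart. Without MIRI 2 and GXNI 3, all 9 differences were negative, with a median of −0.92 against 0.00 over all genes. Rsad2 (log2 difference −1.64, SE 0.39) and Isg15 (−1.13, SE 0.30) were then called lower in GXNI, where 3.47% of 14984 genes were called lower and 1.52% higher, with edgeR adjusted p values of 0.189 and 0.197. With 2 hearts in each group, this fit had few samples to measure the spread. MIRI 2 was the lowest library for all 9 genes and GXNI 3 the highest for 7, so leaving both out lowers these differences by construction. The negative sign and these calls are therefore given as a description.

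The comparison of GXNI mice with sham mice had the highest median log2 difference of the 9 genes among the 4 comparisons, 0.87, where GXNI against MIRI had 0.61. By edgeR 0 of 9 members were called, where 2.67% of 14695 genes were called higher and 1.54% lower, but Mx1, Isg15 and Oasl2 had an unadjusted p under 0.05, as 19.8% of all genes did. Mx1 was the 1 member whose groups did not overlap, as for 13.5% of genes upward and 15.9% downward, and its log2 difference was 2.16 (SE 0.73, edgeR adjusted p = 0.223). Isg15 differed by 1.70 (SE 0.70, edgeR adjusted p = 0.248) and Oasl2 by 1.27 (SE 0.53, edgeR adjusted p = 0.249), while Irf7 lay at −0.68 (SE 0.52). DESeq2 called 2 members higher, Mx1 with an adjusted p of 0.0288 and Isg15 with one of 0.0842, where it called 3.55% of 27966 genes higher and 1.46% lower. Without GXNI 3 no member was called higher, the difference of Mx1 was 1.22 and that of Isg15 0.54, and Irf7 was called lower at −1.46 (SE 0.32, edgeR adjusted p = 0.169), where 1.46% of genes were called lower and 2.11% higher.

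**Figure D2:**
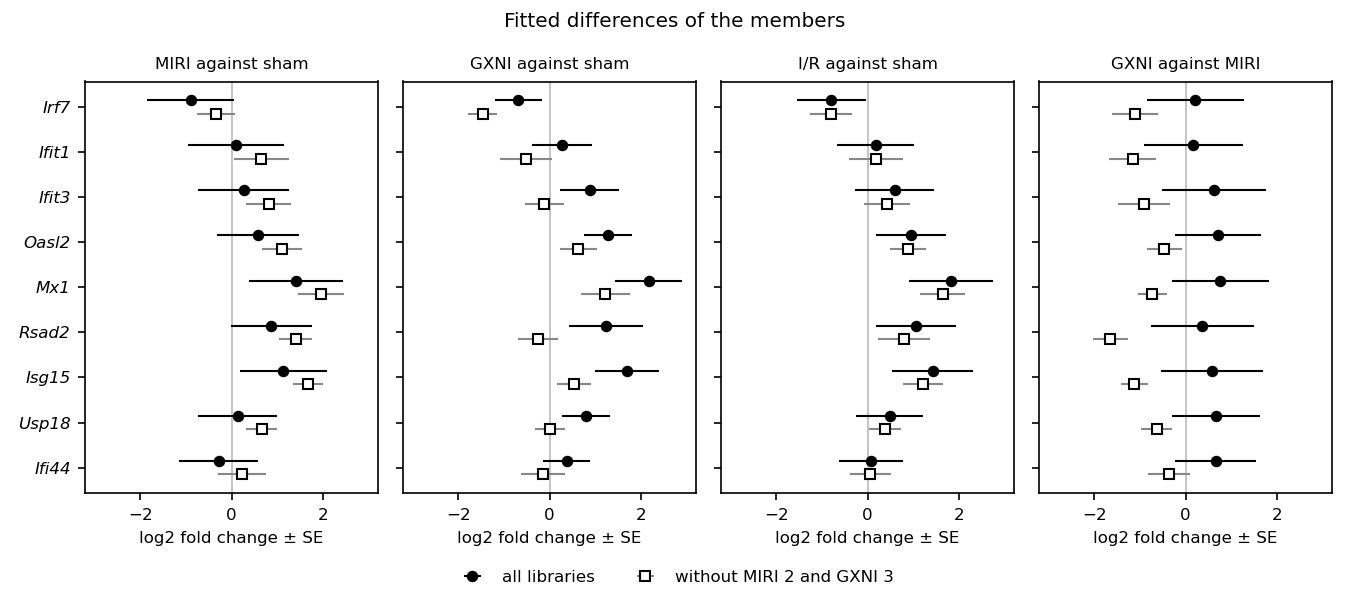
Log2 fold changes of the 9 genes in the 4 comparisons, with bars of 1 SE. Filled points use all libraries and open squares leave out those labelled MIRI 2 and GXNI 3. In GXNI against MIRI the filled points lie at 0.17 to 0.76 and the open squares at −1.64 to −0.37.

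Taking the 6 I/R hearts as 1 arm, 0 of 9 members were called against sham by edgeR, where 5.52% of 15207 genes were called higher and 2.85% lower. None reached an unadjusted p under 0.05, as 29.5% of genes did, none separated the groups without overlap, as 7.96% did upward and 8.89% downward, and DESeq2 called none. Mx1 had a log2 difference of 1.83 (SE 0.92), Isg15 of 1.43 (SE 0.89) and Rsad2 of 1.05 (SE 0.87), with edgeR adjusted p values of 0.210, 0.289 and 0.420. Irf7 lay at −0.80 (SE 0.75), and the median of the 9 genes was 0.59 against 0.01 over all genes. Without MIRI 2, Mx1 was called higher at 2.08 (edgeR adjusted p = 0.0555), where 9.67% of genes were.

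Within a library the ratio of Irf7 to the other members differed between sham and I/R hearts. This pattern was picked out once the values were known, so it is given without a test. There were 12.2, 7.59 and 9.31 counts of Irf7 for each count of Isg15 in the sham libraries. In the MIRI libraries there were 2.81, 2.56 and 1.46, and in the GXNI libraries 2.24, 2.32 and 1.53. The library labelled MIRI 2, with the lowest level of both genes, thus had the ratio of the other I/R hearts and not that of the sham hearts. Irf7 to Mx1 behaved like Irf7 to Isg15, at 43.2 to 112 in sham and 6.66 to 13.1 in I/R. Relative to each of the other 8 members Irf7 was lower in all 6 I/R libraries than in all 3 sham libraries. Relative to 15.2% of all 15226 genes Irf7 was lower in the same way. Of the 36 pairs of members, 18 did not overlap between sham and I/R, beside 12.2% of 1176 pairs of other interferon-stimulated genes. Irf7 had 8 of 8 such pairs, and the other members had from 1 (Rsad2) to 5 (Isg15 and Mx1). A ratio shows unequal change and does not say which of the genes changed. Phrf1, which overlaps Irf7, was at 24.8 to 26.5 CPM in sham and 24.4 to 46.5 CPM in I/R hearts. The strand setting of the counting is not given in the sources used here, so reads of the overlap cannot be told apart.

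**Figure D3:**
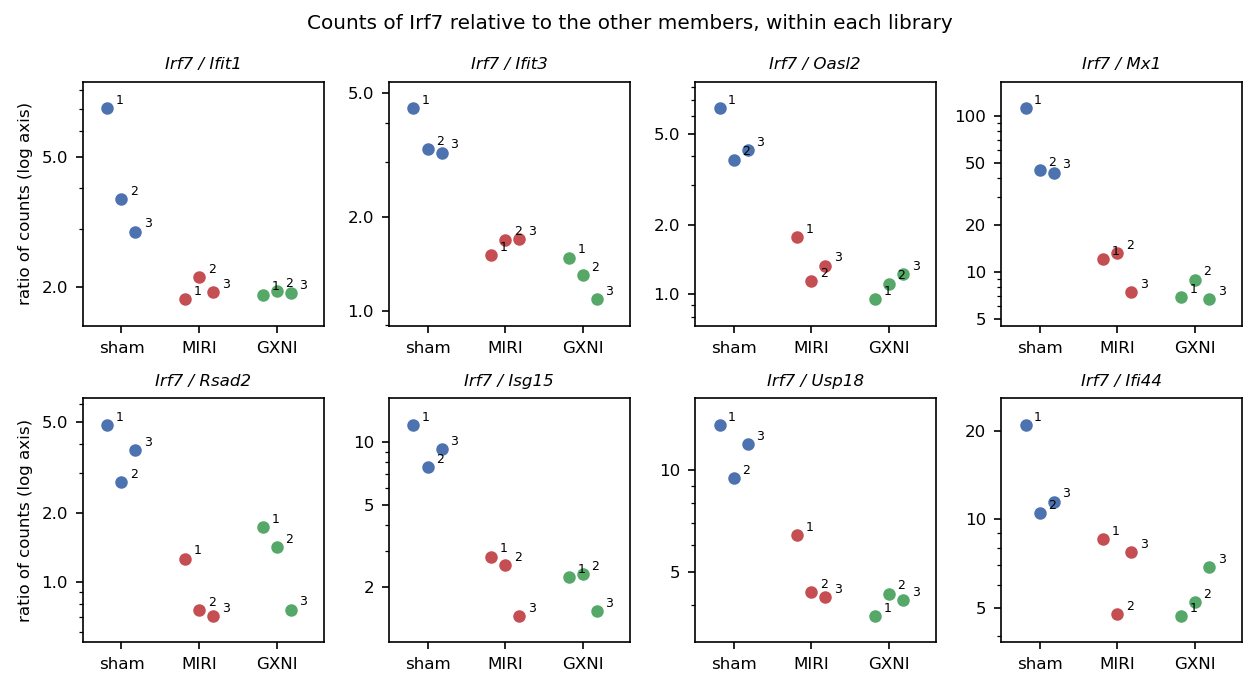
Counts of Irf7 divided by those of each other member, in each library, on log axes that differ between panels. Numbers beside points are replicate numbers. In every panel the 3 sham points lie above the 6 MIRI and GXNI points, as for Irf7 to Isg15 with 7.59 to 12.2 in sham and 1.46 to 2.81 in I/R.

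The genes whose pattern was most like the mean of the 9 members over the 9 libraries were Cmpk2 (Pearson r = 0.99), Zbp1 (0.99), Ifih1 (0.99), Phf11d (0.99), Eif2ak2 (0.98), Pik3ap1 (0.98), Oas1a (0.98) and Slfn9 (0.98), out of 15217 ranked. Without MIRI 2 their r ran from 0.95 to 0.98. Cmpk2, a mitochondrial nucleotide kinase, was at 10.2 to 23.1 CPM in sham, 2.997 to 37.6 CPM in MIRI and 12.7 to 59.5 CPM in GXNI. Zbp1, a sensor of left-handed nucleic acid, was at 4.89 to 17.8 CPM, 0.823 to 39.0 CPM and 13.9 to 51.1 CPM in the same groups. Of the 50 genes most like the members, 23 were among the 49 other interferon-stimulated genes that could be ranked.

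Upstream of the members, the interferon genes themselves were almost silent at this depth. Of 21 interferon ligands 15 had 0 counts in every library, the highest count was 6, and none passed the filter. Ifnb1, which encodes interferon beta, had 2 counts in MIRI 1, 6 in MIRI 3 and 0 in the other 7 libraries. The genes of the receptor were not called in any comparison. Ifnar1 was at 30.7 to 32.7 CPM in sham and 24.8 to 41.1 CPM in I/R, a log2 difference of 0.07 (SE 0.17), and Ifnar2 differed by −0.06 (SE 0.16).

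Downstream of the receptor, the genes of 2 parts of ISGF3 were not called in any comparison. In I/R against sham Stat2 had a log2 difference of −0.38 (SE 0.50) and Irf9 one of −0.36 (SE 0.43). Stat2 was at 27.3, 65.2 and 98.5 CPM in sham, 57.7, 13.6 and 39.5 CPM in MIRI and 46.3, 48.7 and 87.0 CPM in GXNI. Sham 1 was thus the lowest sham library and MIRI 2 the lowest of all for Stat2, as for the 9 members.

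Among 49 other interferon-stimulated genes tested, 0 were called higher and 1, Ifi27, lower in MIRI, in GXNI and in I/R against sham, and 0 were called in GXNI against MIRI, all by edgeR. Of all genes, edgeR called 2.82%, 1.54% and 2.85% lower in MIRI, in GXNI and in I/R against sham, and 6.15%, 2.67% and 5.52% higher. DESeq2 called 5 of the 49 in GXNI against sham, 4 of them higher, beside the 3.55% of all genes called higher and 1.46% lower by it. In GXNI against MIRI it called 0 of the 49, and 0 had an unadjusted p under 0.05 by edgeR. Ifi27, a small mitochondrial protein, was at 63.6, 87.1 and 78.5 CPM in sham and at 16.6 to 36.1 CPM in the 6 I/R hearts. It fell by 1.34 on the log2 scale (SE 0.22, edgeR adjusted p = 0.0546) without overlap of the groups, as for 8.89% of genes downward. In MIRI against sham its call was lost without sham 2, at −1.27. The median log2 difference of these 49 genes in I/R against sham was 0.18, beside 0.59 for the 9 members. Without MIRI 2, 9 of them were called higher and 1 lower in MIRI against sham, beside 16.9% and 13.3% of all genes. Those with the smallest p were Ifitm1 (1.57), Ifi204 (1.75), Oasl1 (2.43) and Isg20 (1.98), with edgeR adjusted p values of 0.000312, 0.000677, 0.000778 and 0.000893, beside Ifi27 at −1.09. MIRI 2 was the lowest library for 46 of the 49 genes and for 12% of all genes. Leaving it out therefore raises the MIRI mean of those 46 by construction, and the higher calls are given as a description.

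Of 22 nucleic acid sensing genes, 1 was called higher and 0 lower in MIRI and in I/R against sham, and 0 in GXNI against sham or against MIRI, by edgeR. The shares of all genes called higher were 6.15% for MIRI, 5.52% for I/R and 2.67% for GXNI, each against sham. The shares called lower were 2.82%, 2.85% and 1.54%. An unadjusted p under 0.05 was reached by 3 of the 22 genes in MIRI against sham (28.3% of all genes), 7 in GXNI against sham (19.8%) and 7 in I/R against sham (29.5%). The called gene was Traf3, an adaptor between sensors and kinases that activate Irf7, at 17.5 to 19.9 CPM in sham and 20.5 to 37.6 CPM in I/R. It rose by 0.69 on the log2 scale (SE 0.20, edgeR adjusted p = 0.0905), without overlap of the groups, as for 7.96% of genes upward, and 7 of the 9 fits that each left out 1 library lost the call, at 0.62 to 0.74.

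**Figure D4:**
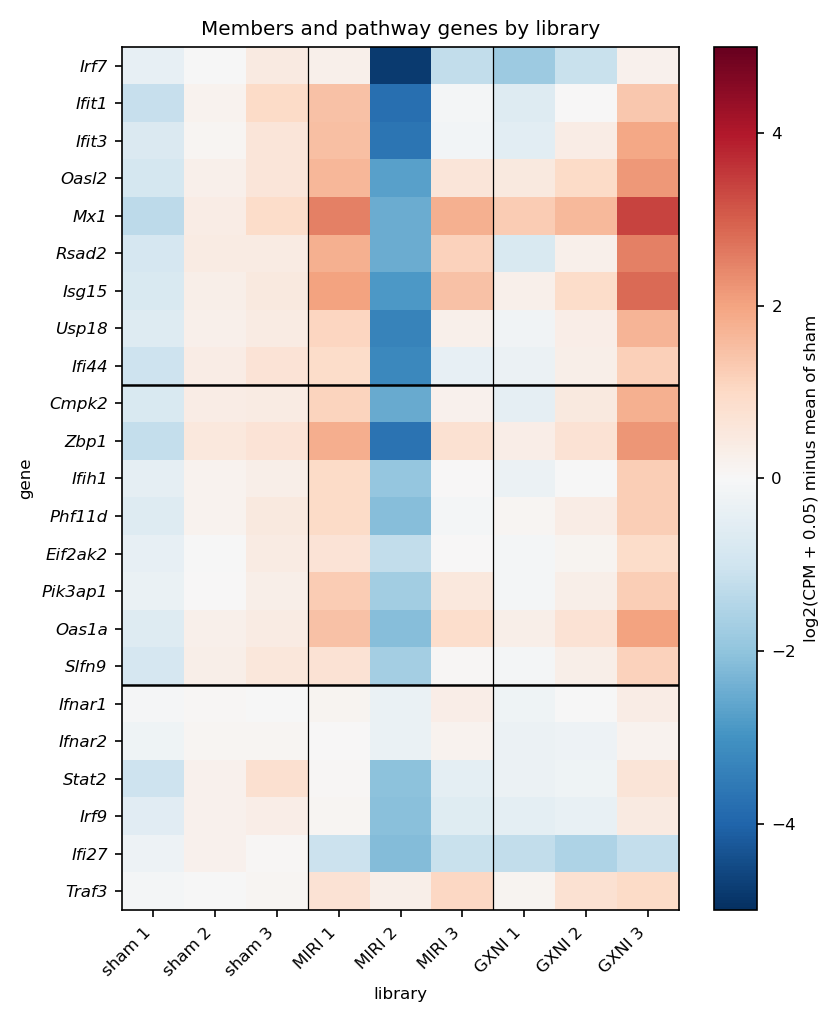
Level of each gene in each library relative to the mean of the sham libraries, as a log2 difference (red higher, blue lower). Above the first line are the 9 members, between the lines the 8 genes most like them, and below the second the receptor chains, Stat2, Irf9, Ifi27 and Traf3. MIRI 2 is the bluest column of the upper 2 blocks, and Ifi27 is blue in all 6 I/R columns.

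Leukocyte markers varied across the same libraries. The 12 neutrophil markers summed to 27.4 to 58.1 CPM in sham, 26.4 to 715.9 CPM in MIRI and 46.6 to 709.6 CPM in GXNI. The 13 monocyte and macrophage markers summed to 699.8 to 785.0 CPM, 491.8 to 927.3 CPM and 590.1 to 867.5 CPM in the same groups, with MIRI 2 the lowest library. No marker of either list was at 0 in all libraries. MIRI 1 and GXNI 3, with the highest neutrophil sums of 715.9 and 709.6 CPM, also had the highest sums of the 9 members, 855.3 and 1137 CPM, and MIRI 2 was the lowest library in both. Over the 9 libraries the log2 CPM of the 10 neutrophil markers that passed the filter had Pearson correlations of 0.38 to 0.80 with the mean of the members. The 13 monocyte and macrophage markers were split. Ly6c2 (0.94), Fcgr1 (0.92) and Ccr2 (0.85) lay above every neutrophil marker, while C1qa, C1qb, C1qc, Mrc1 and Cd163 were negative, down to −0.60 for Cd163. Without MIRI 2, Ly6c2 (0.89) and Fcgr1 (0.82) still lay above them, but Ccr2 (0.71) lay below S100a9 (0.74) and Cxcr2 (0.72). Csf1r (−0.13) and Adgre1 (−0.50) were then negative too. These correlations are given as a description of points that share libraries and depth. MIRI 3 had a neutrophil sum of 640.5 CPM while the members summed to 395.6 CPM. MIRI 2 and sham 2 had neutrophil sums of 26.4 and 27.4 CPM while the members summed to 31.9 and 426.9 CPM. The 8 T and NK cell markers summed to at most 4.17 CPM and the 4 B cell markers to at most 6.67 CPM in any library. The 5 markers of plasmacytoid dendritic cells summed to 1068 to 1769 CPM, nearly all of it Cox6a2, which heart muscle also expresses, while Siglech had 1 to 6 counts, Ccr9 2 to 13, Klk1 0 to 1 and Pacsin1 6 to 51. The part of these cells in the levels of the members was not tested.

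**Figure D5:**
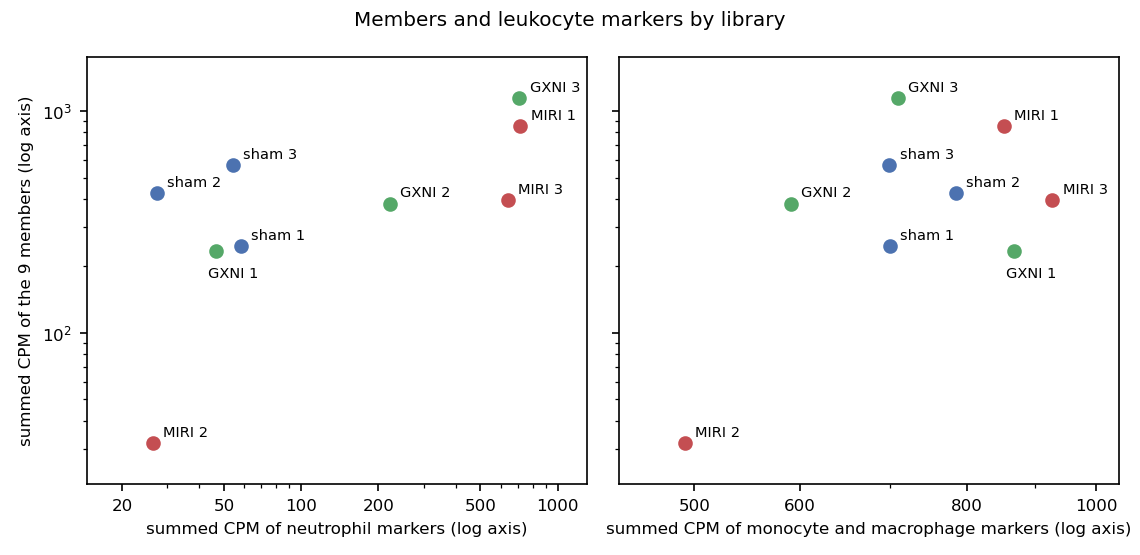
Summed CPM of the 9 members against the summed CPM of neutrophil markers and of monocyte and macrophage markers, on log axes, with 1 point per library coloured by group. MIRI 2 lies far below all other libraries on the vertical axis, at 31.9 CPM against 233.6 CPM for the next lowest, GXNI 1.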

How the data were processed

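The deposited values are counts of reads per gene, whole numbers without normalization. The authors discarded reads with adapters, poly-N stretches or low quality, used HISAT2 for alignment (to mm10, by the submitters' processing notes) and featureCounts for counting. Versions, annotation release and strand setting are not given in the sources used here. Symbols and coordinates came from GENCODE M21, which named 54409 of 54532 identifiers. The listed symbol Mb21d1 was read as Cgas.

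Each comparison was fitted with edgeR 4.0.16 in R 4.3.3 (TMM factors, default filter on low counts, quasi-likelihood F test, no covariates) over all genes, with Benjamini-Hochberg adjustment. The SE is the size of the log2 fold change divided by the square root of F. I/R against sham used all 9 libraries. CPM used TMM factors over the 9 libraries, and RPKM divided by the union of annotated exons. P-values measure the spread between these libraries.

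Alternatives were DESeq2 1.42.0, RLE factors, no filter, an adjusted p of at most 0.05, 1 joint fit of all libraries, a block for the replicate number, each library left out, and both libraries that stood apart left out. The 9 genes, the gene lists and the rules were chosen with earlier results of these data known. Named beside the members are the called genes of each list (the 5 with the smallest p where more were called), Stat2, Irf9, Ifnar1, Ifnar2, Ifnb1 and the 8 genes most like the members. A listed gene that the rule names is not reported here. The fits were checked on simulated counts with the same fixed spread for every gene and no library that stood apart. That check does not show how the fits behave at the wide spread of the members. No pair of libraries of the same group agreed within sampling noise.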

Additional observations from a re-analysis of the deposited data

How the results depend on the processing

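With 3 hearts a group, member spreads within groups limit what these comparisons can show. Direction held under every alternative for Irf7, Isg15, Rsad2 and Mx1 in MIRI against sham, for Isg15, Irf7, Oasl2, Mx1 and Usp18 in GXNI against sham, and for all members except Ifit1 and Ifi44 in I/R against sham. For GXNI against MIRI it held for none of the 9.

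The count of members called in MIRI against sham was 3 without the libraries labelled MIRI 2 and GXNI 3 (16.9% of all genes called higher and 13.3% lower), and 0 to 3 with 1 library left out. In GXNI against MIRI it was 2 without both libraries (1.52% and 3.47% of all genes), and 0 to 0 with 1 left out. In GXNI against sham it was 2 with DESeq2 (3.55% and 1.46%), 1 without the filter (3.57% and 1.52%), 2 with the block for replicate number (2.33% and 1.57%) and 1 without both libraries (2.11% and 1.46%), and 0 to 1 with 1 left out. In I/R against sham it was 0 to 1 with 1 left out, the 1 being without MIRI 2 (9.67% and 4.76%). For other interferon-stimulated genes, the brackets again give the shares of all genes called higher and lower. In MIRI against sham it was 0 at the adjusted p (0.0137% and 0%). It was 10, 9 of them higher, without both libraries (16.9% and 13.3%). With 1 left out it was 0 to 10, the 10 being without MIRI 2 (16.9% and 13.3%). In GXNI against MIRI it was 3, all lower, without both (1.52% and 3.47%). In GXNI against sham it was 5, 4 of them higher, with DESeq2 (3.55% and 1.46%) and also without the filter (3.57% and 1.52%). It was 0 at the adjusted p (0% and 0%) and 8, 7 of them higher, with the block (2.33% and 1.57%). With 1 left out it was 1 to 5, the 5 being without GXNI 1 (10.7% and 7.08%). In I/R against sham it was 0 at the adjusted p (0.0263% and 0.0329%) and 4, 3 of them higher, without both (6.6% and 3.24%). With 1 left out it was 1 to 4, the 4 being without MIRI 2 (9.67% and 4.76%).

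Some log2 fold changes turned sign. With the replicate block, MIRI against sham gave −0.82 for Ifit1, −0.70 for Ifit3, −0.072 for Oasl2 and −0.44 for Usp18. Without both libraries, it gave 0.23 for Ifi44, and GXNI against MIRI gave −1.16 for Ifit1, −0.92 for Ifit3, −1.13 for Isg15, −1.11 for Irf7, −0.47 for Oasl2, −1.64 for Rsad2, −0.73 for Mx1, −0.63 for Usp18 and −0.37 for Ifi44. GXNI against sham then gave −0.52 for Ifit1, −0.11 for Ifit3, −0.25 for Rsad2 and −0.15 for Ifi44. The cause of these changes was not tested.

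With 1 library left out, MIRI against sham ranged from −1.21 to 0.67 for Ifit1, −1.11 to 0.81 for Ifit3, −0.38 to 1.10 for Oasl2, −0.70 to 0.66 for Usp18 and −1.37 to 0.23 for Ifi44. GXNI against MIRI ranged from −0.61 to 1.499 for Ifit1, −0.37 to 2.002 for Ifit3, −0.58 to 1.26 for Isg15, −0.56 to 1.48 for Irf7, −1.11 to 1.08 for Rsad2, −0.18 to 1.57 for Mx1 and −0.10 to 1.51 for Usp18. GXNI against sham ranged from −0.52 to 0.84 for Ifit1, −0.11 to 1.28 for Ifit3, −0.25 to 1.70 for Rsad2 and −0.15 to 0.72 for Ifi44, and I/R against sham from −0.22 to 0.76 for Ifit1 and −0.29 to 0.42 for Ifi44.

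Replicate numbers mark different mice. Deviations of libraries with the same number had correlations of −0.085, 0.053 and 0.108 for sham and MIRI, 0.107, −0.077 and 0.118 for sham and GXNI, and −0.445, 0.127 and 0.700 for MIRI and GXNI, so the numbers did not pair the libraries, and the block moved the members called in GXNI against sham from 0 to 2.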
